A study of Mus musculus with 6 samples.

Results

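The 4 genes of the myogenic regulatory factor family, Myod1, Myog, Myf5 and Myf6, were described by the accessibility of their promoters and of the chromatin around them in mouse myonuclei. Members were chosen by name. They are the 4 windows with these symbols among the 49366 windows around transcription starts, and the 3 peaks among 36097 that lie in an interval of 150 kb of chromosome 10 (build GRCm38) that holds Myf5 and Myf6. For Myod1 and Myog, which lie elsewhere, the 10 and 9 peaks within 50 kb of each start were added.

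The 4 factors are basic helix-loop-helix proteins that pair with E proteins, bind the E-box (CANNTG) and switch on muscle genes. Myf5 and Myod1 commit cells to the muscle lineage, Myog drives their differentiation and fusion, and Myf6 is the factor best known from adult fibres. Myf5 is otherwise kept in satellite cells, the stem cells of muscle, and Myog returns in fibres that have lost their nerve. Myf5 and Myf6 are neighbours and are known to draw on a shared stretch of upstream enhancers.

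Accessibility was read by ATAC-seq, in which a transposase inserts adapters into open chromatin, in nuclei sorted for PCM1, a protein that gathers around the nuclei of muscle fibres. The source was the gastrocnemius and the tibialis anterior (TA) of male C57BL/6J mice. The mice were 8 weeks old when a muscle received AAV6:Yap-shRNA or, in the contralateral limb, AAV6:LacZ-shRNA, and were sampled 28 days later. The first vector carries a short hairpin RNA against Yap, a coactivator that works through TEAD factors, and the second a control hairpin against a bacterial gene. Each group had 3 replicates, each a pool of 4 gastrocnemius and 4 TA muscles, so variation between single animals is not seen.

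Total counts ran from 3326803 to 10319467 in the windows and from 2588520 to 6871176 in the peaks, with LacZ-shRNA replicates 1 and 2 the shallowest. Markers of cell types were examined first. By CPM (counts scaled to library size with TMM factors) per kb, the median muscle fibre marker stood at the 98.7th percentile of all windows. The medians were at the 82.2nd percentile for satellite cell, the 74.1st for leukocyte, the 71.7th for endothelial and the 39.5th for fibroblast markers. Cardiac markers were examined because a description of the series names cardiomyocytes, and their median was at the 75.7th. Summed fibroblast marker windows held 316.9 to 327.3 CPM in LacZ-shRNA and 339.8 to 370.3 in Yap-shRNA, and leukocyte markers 190.5 to 230.1 against 230.4 to 251.4. Neither pair of ranges overlapped, although the members were of both signs. Of 10 fibroblast windows 5 were higher in Yap-shRNA and 5 lower, and of 9 leukocyte windows 7 were higher and 2 lower. Fibroblast log2 fold changes included 0.39 for Col1a1 and -0.25 for Pdgfra. An unadjusted edgeR p under 0.05 was seen in 4 fibroblast windows, all higher, and 1 leukocyte window, also higher (4.90% of all windows). In both lists 0 windows passed an adjusted p of 0.05. The ranges overlapped for satellite cell, endothelial and cardiac markers and for muscle fibre markers, which held 1967 to 2765 against 2110 to 2439 CPM. Of 15 muscle fibre windows 4 were higher in Yap-shRNA and 11 lower, with a median log2 fold change of -0.10 (-0.01 over all windows). Higher and lower windows numbered 5 and 5 for satellite cell, 5 and 5 for endothelial and 6 and 5 for cardiac markers. An unadjusted edgeR p under 0.05 was seen in 0 muscle fibre, 1 satellite cell (lower), 2 endothelial (both lower) and 1 cardiac window (higher). The Yap1 promoter window had a log2 fold change of 0.04 (edgeR adjusted p 0.990, SE 0.18), which does not measure a knockdown that acts on RNA.

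The sequences below are shown because accessibility was measured over them. The first 2 are the stretches just before the annotated starts of Myog (chr1:134289754-134289988, plus strand) and Myf5 (chr10:107486135-107486384, minus strand), from RefSeq promoters of GRCm38.p6, as the pair contrasts a member promoter that held a peak with one that held none. Capitals mark E-boxes and the MEF3 site (TCAGGTT), a motif that Six4 binds.
Myog promoter: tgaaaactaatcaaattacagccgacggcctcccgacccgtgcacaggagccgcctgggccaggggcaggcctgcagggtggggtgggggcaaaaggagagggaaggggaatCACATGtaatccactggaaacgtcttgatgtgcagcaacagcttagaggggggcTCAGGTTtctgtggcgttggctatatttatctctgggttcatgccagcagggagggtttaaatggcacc
Myf5 promoter: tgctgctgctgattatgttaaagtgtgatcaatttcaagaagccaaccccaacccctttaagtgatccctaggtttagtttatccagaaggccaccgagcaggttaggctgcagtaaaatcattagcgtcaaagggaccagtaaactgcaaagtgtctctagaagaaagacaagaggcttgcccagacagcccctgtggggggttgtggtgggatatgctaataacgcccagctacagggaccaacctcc

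Motifs were searched on both strands in the 250 bases upstream of the RefSeq start. For Myog the last of these bases run past the annotated start and are not printed, so the stretch shown has 235. The Myog bases scanned hold 1 MEF3 match and 2 E-boxes, CACATG in the printed stretch and CAGTTG past its end. Of 32851 promoters scanned over the same length, 3.49% hold a MEF3 match and 66.2% an E-box. The Myf5 bases hold neither motif. In both promoters the scan found 0 matches to the TEAD motif (ACATTCC), the MEF2 motif and the CArG box of serum response factor. Only exact matches were counted, so these zeros do not show that a variant site is absent. The printed Myog bases hold the A/T-rich stretch ctatatttat, which the scan did not count.

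Next are the central 300 bases of 5 distal peaks of GRCm38, printed on the plus strand with E-boxes and, in PK35089, a CArG box in capitals. PK7022 and PK7023 are the peaks upstream of Myf6, at chr10:107499782-107500081 and chr10:107506361-107506660. PK35088 and PK35089 lie upstream of Myod1, at chr7:46353111-46353410 and chr7:46370917-46371216, and PK3070 upstream of Myog, at chr1:134275900-134276199.
PK7022: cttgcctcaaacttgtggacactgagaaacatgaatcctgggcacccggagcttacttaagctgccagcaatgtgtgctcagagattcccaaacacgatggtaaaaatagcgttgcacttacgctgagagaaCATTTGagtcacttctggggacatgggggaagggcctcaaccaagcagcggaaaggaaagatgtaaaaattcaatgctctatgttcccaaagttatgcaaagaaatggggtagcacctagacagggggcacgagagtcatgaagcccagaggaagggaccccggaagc
PK7023: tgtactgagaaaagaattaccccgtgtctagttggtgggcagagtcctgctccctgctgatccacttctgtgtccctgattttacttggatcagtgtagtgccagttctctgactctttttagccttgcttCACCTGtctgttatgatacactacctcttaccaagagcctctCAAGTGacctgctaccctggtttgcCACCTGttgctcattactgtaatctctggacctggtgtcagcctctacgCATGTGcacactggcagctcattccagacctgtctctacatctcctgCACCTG
PK35088: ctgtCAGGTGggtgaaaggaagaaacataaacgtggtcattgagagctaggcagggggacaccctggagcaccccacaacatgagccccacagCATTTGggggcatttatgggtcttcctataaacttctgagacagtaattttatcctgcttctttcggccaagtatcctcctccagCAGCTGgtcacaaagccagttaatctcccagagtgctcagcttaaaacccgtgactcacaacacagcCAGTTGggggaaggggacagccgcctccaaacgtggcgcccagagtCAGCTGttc
PK35089: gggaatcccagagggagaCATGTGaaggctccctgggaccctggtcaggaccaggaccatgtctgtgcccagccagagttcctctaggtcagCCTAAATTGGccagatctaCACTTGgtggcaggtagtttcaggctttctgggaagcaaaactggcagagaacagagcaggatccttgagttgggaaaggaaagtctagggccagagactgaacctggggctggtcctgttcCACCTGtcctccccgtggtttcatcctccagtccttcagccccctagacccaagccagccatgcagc
PK3070: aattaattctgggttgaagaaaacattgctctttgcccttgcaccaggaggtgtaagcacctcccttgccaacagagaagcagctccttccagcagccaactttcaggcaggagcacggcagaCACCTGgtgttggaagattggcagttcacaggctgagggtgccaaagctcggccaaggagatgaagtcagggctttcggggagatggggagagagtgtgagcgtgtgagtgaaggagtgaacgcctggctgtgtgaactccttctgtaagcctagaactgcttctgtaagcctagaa

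At least 1 E-box was held by 67.4% of the 35840 peak centres scanned. PK7023 and PK35088 hold 5 each, and 3.87% of peak centres hold as many. In PK35088 2 of them are CAGCTG, a count that 2.76% of centres reach. The CArG box of PK35089 was found in 0.815% of centres, and PK3070 and PK7022 have 1 E-box each. Of the other peaks near Myod1 and Myog, PK3067, upstream of Myog, held 6 E-boxes. Of these 4 were CAGCTG, a count that 0.240% of centres reach. PK3068, the weakest peak near Myog at 3.64 CPM per kb, held 5 E-boxes. The Myf6 and Myog promoter peaks, PK7021 and PK3071, held 0, as did PK35091, PK35092 and PK3073. PK35085 and PK3066 held the TEAD motif, found in 2.17%. These are matches of letters, not measured binding.

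Promoter accessibility separated Myod1 and Myf5 from the other members. The Myod1 window was the most open of the 4 and stood among the most open of the genome, Myf6 and Myog came next, and the Myf5 window held no peak. This order is that of the windows. Per kb of promoter peak, Myod1 (PK35090, 33.75 CPM) and Myf6 (PK7021, 31.09 CPM) were nearly equal. Each window is 2.001 kb long around 1 annotated start and overlaps no other window, so length and overlap do not distort a comparison of levels. Other differences between loci that are the same in every library, such as base composition, were not corrected for. For reference, the median of the 39022 windows that overlap no other was 4.71 CPM per kb, at 9.13 in the 7417 with a peak and 4.29 in the 31605 without.

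Myod1 (ENSMUSG00000009471, chr7:46376474-46379099, plus strand) averaged 35.5 CPM per kb over the 6 libraries, at the 99.8th percentile of all windows. Its window held 62.4, 70.8 and 83.3 CPM in LacZ-shRNA replicates 1 to 3 and 79.8, 64.2 and 65.6 in Yap-shRNA replicates 1 to 3. The ranges overlapped almost fully, with the highest library among the controls. Counts behind these values ran from 221 to 784.

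Myf6 (ENSMUSG00000035923, chr10:107492853-107494737, minus strand) averaged 21.9 CPM per kb, at the 99.1st percentile. Values were 38.0, 49.0 and 55.3 CPM in LacZ-shRNA and 44.9, 36.9 and 38.3 in Yap-shRNA. LacZ-shRNA replicate 1 lay inside the Yap-shRNA range, and the other two controls lay above it.

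Myog (ENSMUSG00000026459, chr1:134289989-134292548, plus strand) averaged 16.8 CPM per kb, at the 98.1st percentile. It held 29.67, 32.04 and 32.58 CPM in LacZ-shRNA and 34.83, 32.68 and 40.10 in Yap-shRNA. All Yap-shRNA libraries lay above all controls, although the gap between LacZ-shRNA replicate 3 and Yap-shRNA replicate 2 was far smaller than the spread within Yap-shRNA.

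Myf5 (ENSMUSG00000000435, chr10:107482908-107486134, minus strand) averaged 6.44 CPM per kb, at the 76.1st percentile of all windows. The 6 libraries were close together, at 11.8, 12.2 and 14.6 CPM in LacZ-shRNA and 12.7, 12.3 and 13.8 in Yap-shRNA, on 38 to 132 counts each. Among windows that overlap no other, Myf5 stood at the 86.0th percentile of those without a peak and at the 21.2nd of those with one. The window of Pax7, the defining marker of satellite cells, also held no peak and averaged 7.90 CPM per kb. The satellite cell list was mixed, as 4 of its 10 marker windows held a peak, with Cdh15 at 19.9 CPM per kb. Lack of a peak did not by itself mark a closed window, as that of Tnni2 held none at 55.2 CPM per kb.

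**Figure D1:**
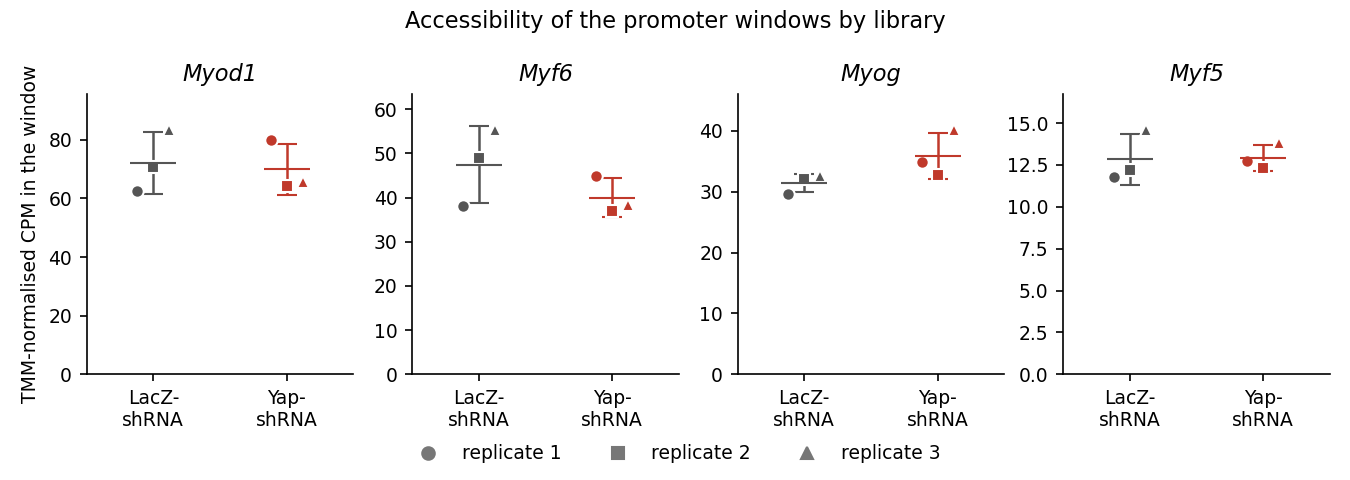
Points give the TMM-normalised CPM of each library in the promoter window of the 4 factors, with horizontal bars for the group mean and whiskers for the SD (n = 3 per group), on an axis from 0 in each panel. The groups overlap for Myod1, Myf6 and Myf5, and the Yap-shRNA libraries lie above the controls for Myog.

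**Figure D2:**
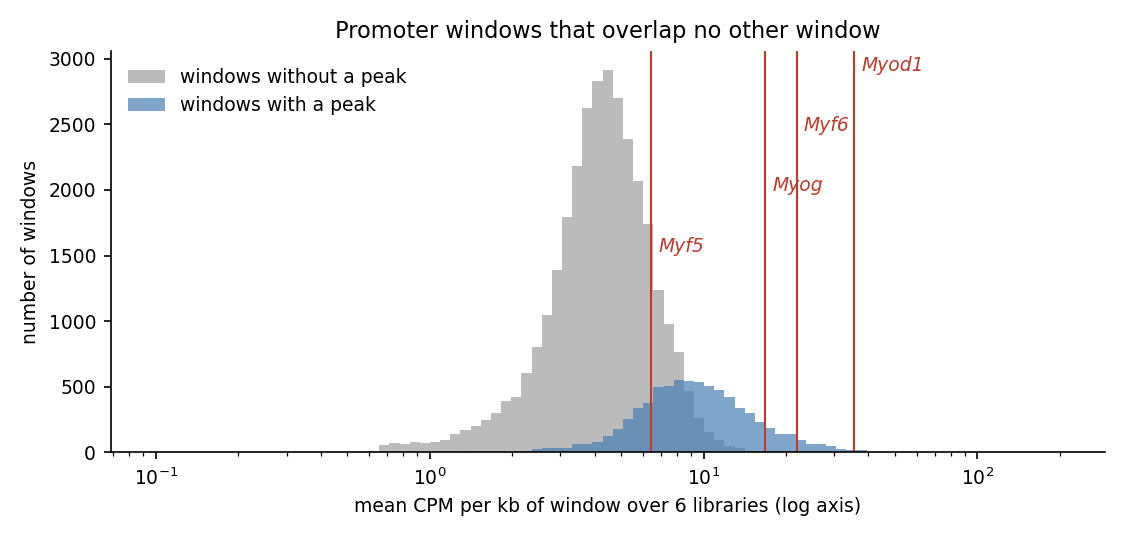
Histogram of the mean CPM per kb (log axis) of the 39022 windows that overlap no other, divided by whether a peak lies in the window, with lines at the 4 factors. Myod1, Myf6 and Myog sit in the upper tail of the windows with a peak, and Myf5 in the upper part of those without.

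The order of the levels was tested within libraries, by an exact two-sided sign-flip permutation test over the 6 libraries with Benjamini-Hochberg adjustment over 3 neighbouring pairs. Myod1 exceeded Myf6 in 6 of 6 libraries, by 0.71 ± 0.12 on the log2 scale (SD, 1.63-fold, exact p 0.03125, adjusted p 0.04688). Myog exceeded Myf5 in 6 of 6, by 1.38 ± 0.13 (SD, 2.61-fold, the same exact and adjusted p). An exact p of 0.03125 is the smallest that 6 libraries allow. Myf6 exceeded Myog in 5 of 6 libraries, by 0.37 ± 0.30 with single values from -0.07 to 0.76, and these neighbours were not separated (exact p 0.0625, adjusted p 0.0625). Both groups entered this test, so it describes levels in these muscles across the treatments.

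The effect of Yap-shRNA on the members was then examined by edgeR's quasi-likelihood test fitted on all 49366 windows. None of the 4 windows passed an adjusted p of 0.05 (0 of 4, where 0.0223% of all windows passed), and 0 had an unadjusted p under 0.05 (4.90% of all windows). Groups did not overlap in 1 of 4, against 10.1% of all windows. In pooled nuclei, a change in the share of nuclei that are open and a change within each nucleus cannot be told apart.

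Myf6 had the lowest log2 fold change of the 4, at -0.25 (SE 0.14, 95% interval -0.54 to 0.04, edgeR adjusted p 0.946), with means of 47.4 ± 8.74 and 40.01 ± 4.30 CPM in LacZ-shRNA and Yap-shRNA libraries (SD, n = 3 per group). In absolute size this value was exceeded by 24.5% of all windows, which differ in count and so in noise. The unadjusted edgeR p was 0.0882. It fell under 0.05 with a loess offset on abundance and without LacZ-shRNA replicate 1, and the adjusted threshold was passed in neither. Leaving out each library in turn gave -0.403 to -0.101. The value was -0.40 (edgeR adjusted p 0.151) without LacZ-shRNA replicate 1, the control that lay among the Yap-shRNA libraries. It was -0.10 (edgeR adjusted p 0.882) without LacZ-shRNA replicate 3, the highest control. Muscle fibre marker windows were lower in 11 of 15 and higher in 4, and their part in the Myf6 value was not tested.

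Myog had the highest, at 0.19 (SE 0.14, 95% interval -0.10 to 0.47, edgeR adjusted p 0.949), with means of 31.4 ± 1.55 and 35.9 ± 3.82 CPM (SD, n = 3 per group), and 38.0% of windows had a larger absolute value. The summed fibroblast and leukocyte markers given above were also higher in all Yap-shRNA libraries, with 5 of 10 and 2 of 9 of their windows lower, and their part in the Myog value was not tested.

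Myod1 differed by -0.05 (SE 0.14, 95% interval -0.33 to 0.23, edgeR adjusted p 0.984), at 72.2 ± 10.5 and 69.9 ± 8.67 CPM (SD, n = 3 per group). Myf5 differed by -0.01 (SE 0.18, 95% interval -0.37 to 0.34, edgeR adjusted p 0.996), at 12.8 ± 1.52 and 12.9 ± 0.77 CPM (SD, n = 3 per group). For both genes the difference was far smaller than the spread between replicates, and the intervals leave out changes beyond 0.37 on the log2 scale in either direction.

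Around the genes, the members differed in how many peaks they carried. Within 50 kb of the start Myod1 had 10 peaks, more than 99.6% of 20531 protein-coding genes, and Myog had 9, more than 98.8%. Myf5 and Myf6 had 3 each, the same 3 peaks, against a median of 2. All 3 lay at or upstream of Myf6. No peak lay in the 93.3 kb of the interval on the other side, which includes Myf5.

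The Myf6 promoter peak, PK7021 (chr10:107493256-107495476), spans 2221 bp with its centre 0.371 kb from the Myf6 start and overlaps a Myf6 exon. It held 66.0, 73.5 and 80.7 CPM in LacZ-shRNA and 72.1, 62.5 and 59.5 in Yap-shRNA, and the groups overlapped at LacZ-shRNA replicate 1, as in the window, with which the peak shares reads. The log2 fold change was -0.19 (edgeR adjusted p 0.735, SE 0.12).

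PK7022 (chr10:107499536-107500328) is an intergenic peak of 793 bp, 5.20 kb upstream of the Myf6 start and 13.8 kb upstream of that of Myf5. Per kb it was nearly as open as the promoter peak, at 29.1 CPM per kb against 31.1, while the median of all peaks was 20.1. Its libraries held 24.9, 27.2 and 20.5 CPM in LacZ-shRNA and 24.3, 18.3 and 23.0 in Yap-shRNA, with a log2 fold change of -0.11 (edgeR adjusted p 0.925, SE 0.16).

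PK7023 (chr10:107506252-107506771), the peak with 5 E-boxes, spans 520 bp, 11.8 kb upstream of Myf6 and 20.4 kb upstream of Myf5. It was the weakest of the locus at 17.1 CPM per kb, with 8.22, 8.92 and 8.54 CPM in LacZ-shRNA and 7.63, 10.6 and 9.43 in Yap-shRNA, on 21 to 76 counts. The log2 fold change was 0.11 (edgeR adjusted p 0.958, SE 0.24), and its interval of -0.37 to 0.60 is the widest of the locus. In all, 0 of the 3 locus peaks passed the adjusted threshold (0.618% of all peaks passed), 0 had an unadjusted p under 0.05 (8.90% of all peaks), and 0 had groups that did not overlap (13.3% of all peaks).

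**Figure D3:**
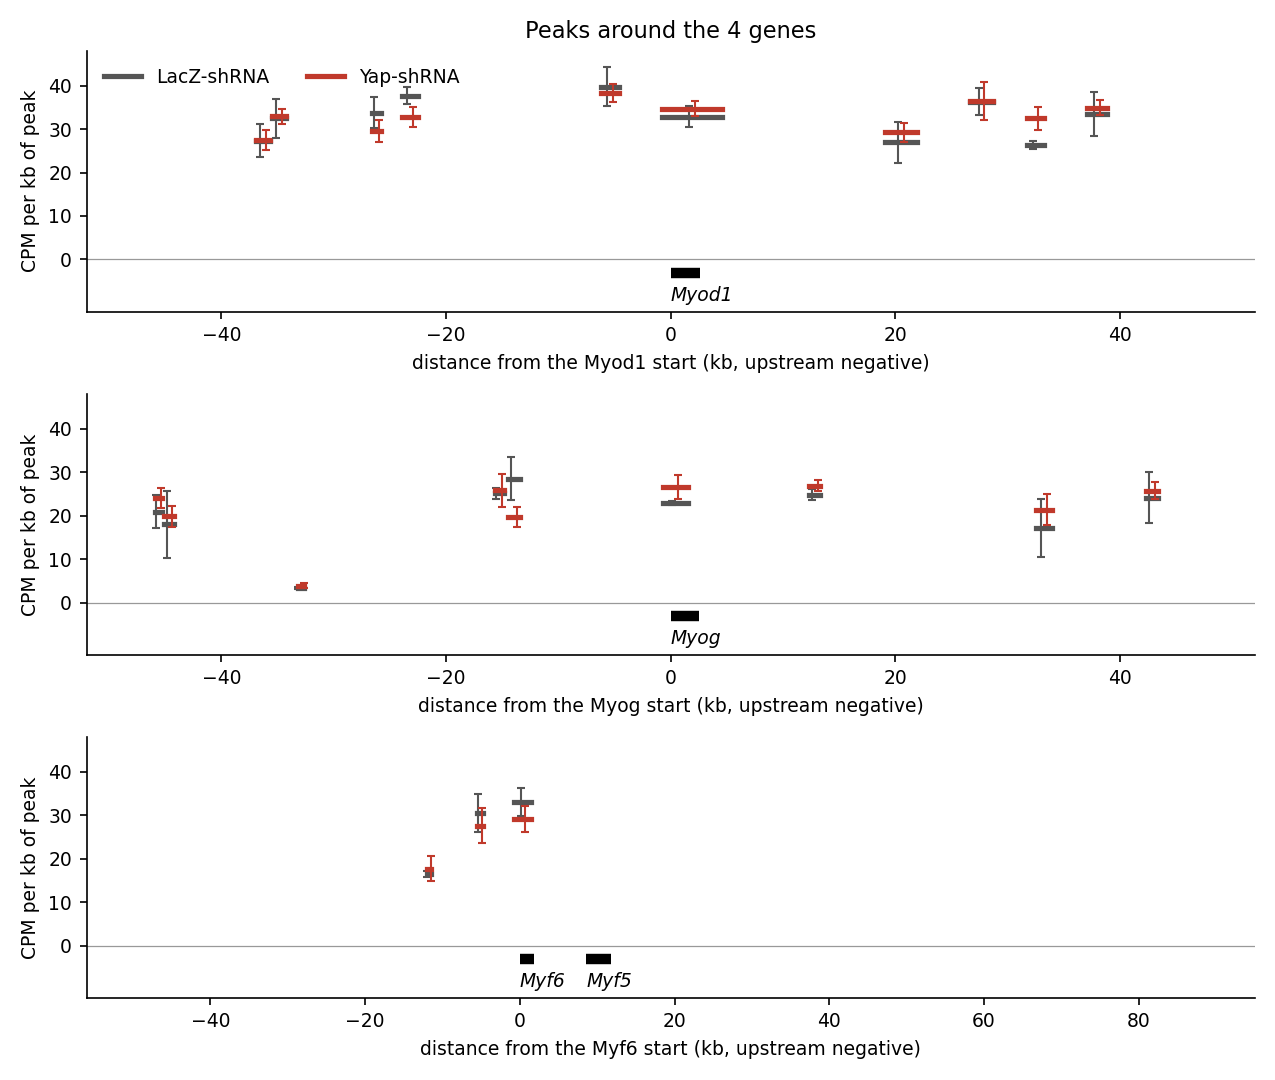
Peaks around Myod1, Myog and the Myf5 and Myf6 pair by distance from the start of Myod1, Myog or Myf6 (kb, upstream negative) and mean CPM per kb of peak in each group (line as long as the peak, whiskers the SD, n = 3 per group), with genes as black bars below 0. Peaks surround Myod1 and Myog on both sides, whereas the 3 peaks of the shared locus lie at or upstream of Myf6.

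The peaks around Myod1 formed an even field, at 27.4 to 39.0 CPM per kb, so that all 10 were above the median peak. The promoter peak PK35090 (chr7:46375707-46381040) is 5334 bp long, covers the gene and held 161.8, 176.6 and 187.2 CPM in LacZ-shRNA and 194.9, 177.6 and 182.1 in Yap-shRNA. The most open per kb was PK35089 (chr7:46370308-46371826), intergenic and 5.41 kb upstream, with 53.1, 61.6 and 66.6 CPM in LacZ-shRNA and 59.9, 54.3 and 60.2 in Yap-shRNA. The groups overlapped in both peaks, and the log2 fold changes were 0.08 (edgeR adjusted p 0.949, SE 0.14) and -0.06 (edgeR adjusted p 0.952, SE 0.12).

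PK35088 (chr7:46352555-46353968), 23.2 kb upstream, was lower in every Yap-shRNA library than in any control. Its values were 52.03, 56.47 and 51.26 CPM in LacZ-shRNA and 48.22, 48.08 and 42.51 in Yap-shRNA, a log2 fold change of -0.19 that did not pass the threshold (edgeR adjusted p 0.713, SE 0.12). Downstream, 4 peaks lie in Kcnc1, which encodes a voltage-gated potassium channel: PK35091 at its promoter and PK35092, PK35093 and PK35094 in introns. The intronic PK35093, 32.5 kb from the Myod1 start, held 43.0, 39.9 and 40.8 CPM in LacZ-shRNA and 51.4, 54.5 and 46.5 in Yap-shRNA. The groups did not overlap, and its log2 fold change was 0.30 (SE 0.13, unadjusted p 0.0208, edgeR adjusted p 0.415). It was singled out after its values were seen. The 3 other Kcnc1 peaks had log2 fold changes of 0.12, 0.01 and 0.08. Over the 10 peaks, 5 were higher and 5 lower with a median log2 fold change of -0.002. The adjusted threshold was passed by 0 of 10 (0.618% of all peaks), an unadjusted p under 0.05 was seen in 1 of 10 (8.90% of all peaks) and groups did not overlap in 2 of 10 (13.3% of all peaks). The median over all peaks was -0.003.

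The Myog peaks ranged more widely, from 3.64 to 25.9 CPM per kb. The promoter peak PK3071 (chr1:134289281-134291515) was higher in every Yap-shRNA library, with 52.3, 51.0 and 50.4 CPM in LacZ-shRNA and 56.0, 55.5 and 66.7 in Yap-shRNA. Its log2 fold change of 0.21 (edgeR adjusted p 0.668, SE 0.12) was close to that of the Myog window, with which it shares reads, and did not pass the threshold.

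PK3070 (chr1:134275507-134276594), intergenic and 13.9 kb upstream, was the 1 peak near Myog with a negative log2 fold change. It held 26.3, 36.9 and 29.8 CPM in LacZ-shRNA and 22.7, 18.6 and 23.0 in Yap-shRNA, so that all Yap-shRNA libraries lay below all controls, and means were 31.0 ± 5.43 and 21.5 ± 2.45 CPM (SD, n = 3 per group). The log2 fold change was -0.51 (SE 0.15, 95% interval -0.81 to -0.20, unadjusted p 0.00161), the largest in size among the peaks examined here, and it did not pass the adjusted threshold (edgeR adjusted p 0.130, with a range of 0.0776 to 0.695 over 14 alternatives). Its neighbour PK3069 (chr1:134274335-134275113), 15.3 kb upstream, held 19.7, 20.4 and 18.6 CPM in LacZ-shRNA and 22.5, 16.8 and 21.2 in Yap-shRNA, a log2 fold change of 0.05 (edgeR adjusted p 0.972, SE 0.16).

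The raw count of PK3070 over that of PK3069, a ratio within a library that needs no scaling factor and was chosen after the values were seen, was 1.33, 1.81 and 1.60 in LacZ-shRNA and 1.01, 1.11 and 1.09 in Yap-shRNA. The ratios did not overlap between groups (two-sided exact permutation p 0.1, the smallest that 3 against 3 allows). The other peaks near Myog had log2 fold changes of 0.05 to 0.36. Among them was PK3073, 33.2 kb downstream in Ppfia4, which encodes a liprin scaffold protein, at 0.36 (SE 0.17, unadjusted p 0.0405, edgeR adjusted p 0.532), with 15.6, 34.8 and 24.0 CPM in LacZ-shRNA and 25.2, 32.1 and 35.4 in Yap-shRNA. Its 2 Ppfia4 neighbours PK3072 and PK3074 had 0.11 and 0.09. In all, 8 of the 9 Myog peaks were higher and 1 lower, with a median of 0.18. Of the 9, 0 passed the adjusted threshold, 2 had an unadjusted p under 0.05 and 2 had groups that did not overlap, where the shares of all peaks were 0.618%, 8.90% and 13.3%. Neighbouring peaks share libraries and local chromatin, so they are not separate replicates.

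**Figure D4:**
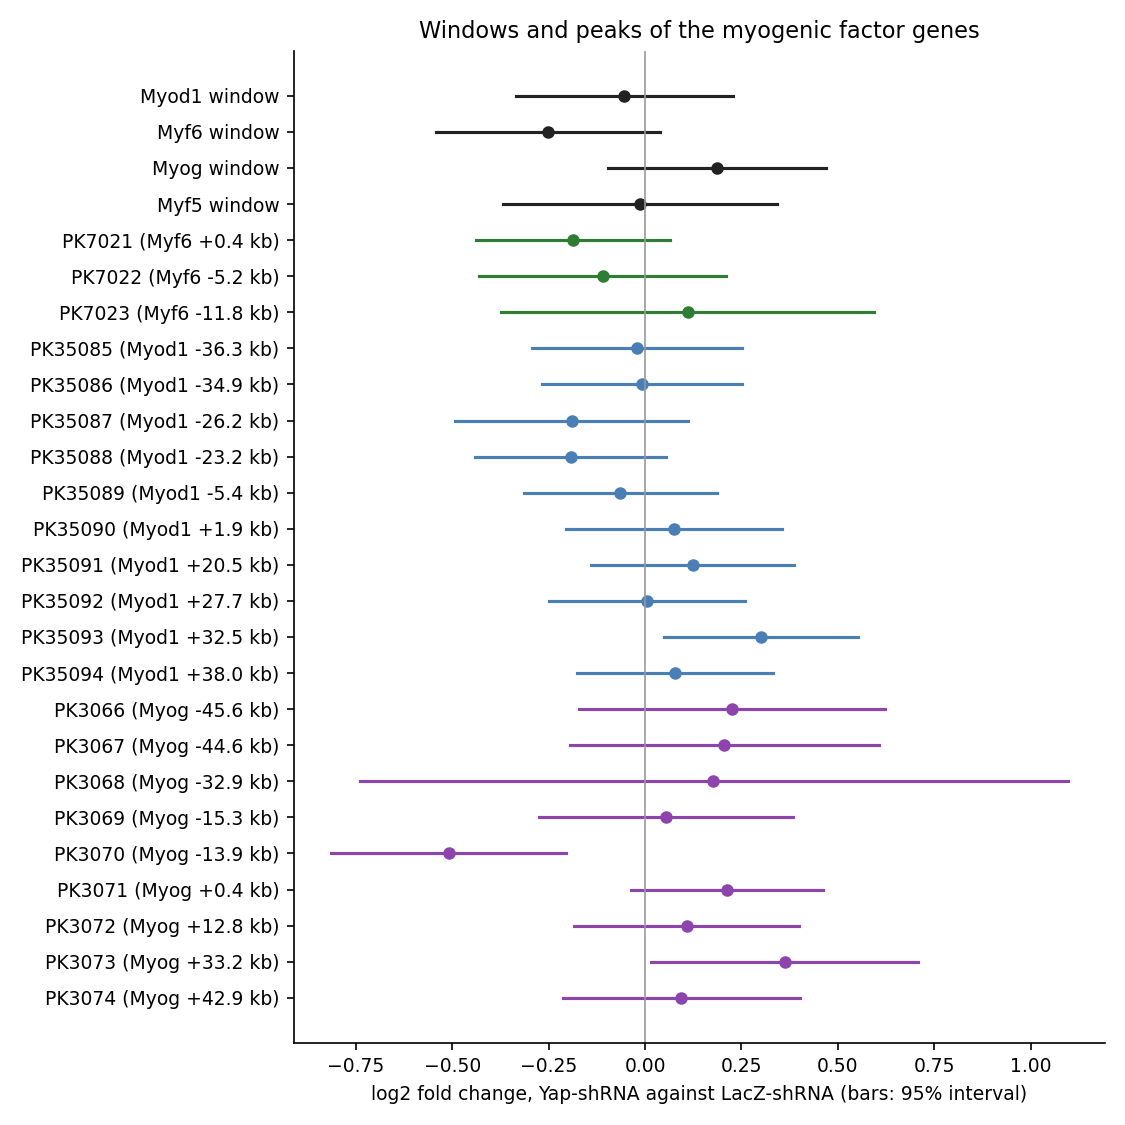
Log2 fold changes, Yap-shRNA against LacZ-shRNA, of the 4 windows (black), the 3 peaks of the Myf5 and Myf6 locus (green), and the peaks within 50 kb of Myod1 (blue) and Myog (purple), with 95% intervals and distances from the gene start in kb. The intervals of PK3070, PK35093 and PK3073 leave out 0, and 0 of all values shown passed the adjusted threshold.

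Because Myog and Myf6 lay at opposite ends, the raw count of the Myog window over that of the Myf6 window was taken in each library, a ratio also chosen after the values were seen. It was 0.781, 0.654 and 0.590 in LacZ-shRNA and 0.776, 0.886 and 1.048 in Yap-shRNA. The lowest Yap-shRNA ratio lay just under the highest control, so the groups overlapped, with means of 0.675 ± 0.097 and 0.904 ± 0.137 (SD, n = 3 per group, two-sided exact permutation p 0.2, where 0.1 is the smallest possible).

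Partners, regulators and targets of the factors gave 74 genes, and a window was present for all 74. None passed the adjusted threshold (0 of 74, where 0.0223% of all windows passed), and 8 of 74 had an unadjusted p under 0.05 (4.90% of all windows). Without LacZ-shRNA replicate 1 it was passed by 2, both lower in Yap-shRNA: Mybph, at -0.56 (edgeR adjusted p 0.0396, SE 0.14), and Bhlhe40, at -0.47 (edgeR adjusted p 0.0498, SE 0.12). The median log2 fold change over all windows was -0.01. Among the genes named below, groups did not overlap for Id3, Twist1, Meox1, Dach2, Mybph, Musk and Chrng. Groups did not overlap in 10.1% of all windows. Genes were named by their p-values, which favours such cases, so these are not separate support.

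Values for the E protein partners were small. Of 3 windows 0 had an unadjusted p under 0.05, and the median log2 fold change was 0.04. The values were 0.10 for Tcf3 (E2A), 0.04 for Tcf12 (HEB) and -0.06 for Tcf4 (E2-2), each with an SE of 0.13 to 0.14.

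Inhibitors and repressors, which sequester E proteins or compete for E-boxes, had a median of 0.02 over 18 windows, with 0 higher and 2 lower at an unadjusted p under 0.05. Twist1, which holds back myogenic factors in precursor cells, had 18.1, 21.8 and 20.9 CPM in LacZ-shRNA and 15.7, 17.1 and 14.5 in Yap-shRNA, so that the groups did not overlap. Its log2 fold change was -0.35 (SE 0.16, unadjusted p 0.0344, edgeR adjusted p 0.946). Bhlhe40, a transcriptional repressor linked to the clock, was at -0.39 (SE 0.14, unadjusted p 0.00784, edgeR adjusted p 0.946) in a window that overlaps another gene's. Id3, an inhibitor that binds E proteins without binding DNA, was at 0.26 (SE 0.14) and the Notch effector Hey1 at -0.14 (SE 0.15).

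Upstream regulators, from Pax3 and Pax7 to the MEF2 factors, had a median of -0.01 over 16 windows, with 1 higher and 1 lower at an unadjusted p under 0.05. These were Mef2b at 0.39 (SE 0.18, unadjusted p 0.0328) and Meox2 at -0.39 (SE 0.18, unadjusted p 0.0356), both with windows that overlap another gene's, so their counts are uncertain. Meox1 was at 0.35 (SE 0.18) and Six4, whose product binds the MEF3 site, at -0.20 (SE 0.14).

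Regulators of Myog in denervation and of its chromatin had a median of -0.02 over 10 windows, and 0 had an unadjusted p under 0.05. Dach2, a repressor of Myog that falls when the nerve is lost, held 11.4, 12.8 and 11.4 CPM in LacZ-shRNA and 8.56, 10.6 and 8.46 in Yap-shRNA. The groups did not overlap, at a log2 fold change of -0.34 (edgeR adjusted p 0.946, SE 0.19) in a window without a peak. Hdac9, a deacetylase that represses Myog, was at -0.20 (SE 0.14), the acetyltransferase Ep300 at 0.26 (SE 0.14) and the methyltransferase Ezh2 at 0.11 (SE 0.14).

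Target genes had a median of -0.06 over 27 windows, with 2 higher and 2 lower at an unadjusted p under 0.05, where the share of all windows was 4.90%. Mybph, a myosin-binding protein, held 27.1, 34.3 and 35.3 CPM in LacZ-shRNA and 20.4, 23.9 and 27.1 in Yap-shRNA, at -0.44 (SE 0.15, unadjusted p 0.00547, edgeR adjusted p 0.946). Musk, the receptor kinase of the neuromuscular junction, held 20.1, 20.2 and 25.1 against 15.1, 15.9 and 18.1 CPM, at -0.44 (SE 0.16, unadjusted p 0.00908, edgeR adjusted p 0.946). In both genes all Yap-shRNA libraries lay below all controls, by a very narrow margin for Mybph.

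The 2 targets with higher values were Chrng and Myh8. Chrng, the embryonic subunit of the acetylcholine receptor, held 24.2, 20.8 and 23.2 CPM in LacZ-shRNA and 26.2, 28.8 and 29.8 in Yap-shRNA, at 0.30 (SE 0.15, unadjusted p 0.0473, edgeR adjusted p 0.946), and its groups did not overlap. Myh8, a perinatal myosin, was at 0.34 (SE 0.16, unadjusted p 0.0427, edgeR adjusted p 0.946) with overlapping groups. The levels of the targets spread widely, and per kb the structural genes Tnni2 (55.2 CPM per kb), Ckm (41.0), Tnnt3 (35.9) and Acta1 (34.3) stood near or above Myod1, with the windows of Ckm and Acta1 overlapping another gene's. The windows of Tnni2, Ckm and Tnnt3 held no peak.

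**Figure D5:**
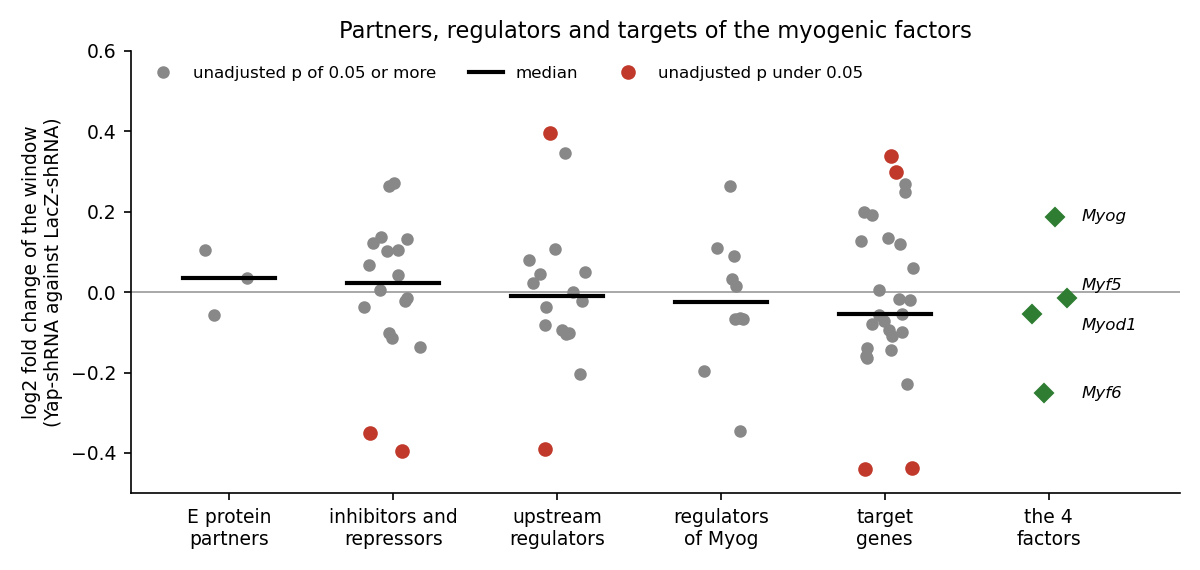
Each point is the log2 fold change (Yap-shRNA against LacZ-shRNA) of the promoter window of 1 gene in 5 lists, with red for an unadjusted p under 0.05, a black line at the list's median, and the 4 factors in green. The 5 medians lie between -0.06 and 0.04, and 0 of the 74 listed genes passed the adjusted threshold.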

How the data were processed

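The authors aligned reads to GRCm38 with BWA 0.7.17, used SAMtools 1.8 to remove duplicates and MACS 1.4.2-1 to call peaks, kept peaks found in several samples and counted reads with featureCounts 1.5.0. The deposited values are whole-number counts per peak and per window, not normalised, and rows with a mean under 10 had been removed by the authors. Fragment lengths and the transposase offset cannot be examined in such tables. Coordinates are printed as deposited.

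All 49366 window identifiers and symbols matched the GENCODE annotation of GRCm38. Windows were treated as reaching 1 kb either way from each annotated start. In 99.98% of 5736 windows that overlap no other and hold whole peaks, the window count was at least 0.95 of the peak counts. The 10344 windows that overlap another (20.95%) have uncertain counts.

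Counts were compared with edgeR 4.0.16 (R 4.3.3) in a quasi-likelihood fit over each whole table, scaled by TMM and without covariates, with Benjamini-Hochberg adjustment at 0.05. CPM are TMM-normalised. Nothing in the labels places the replicates in separate batches, and p-values measure the spread between pools. All pairs of replicates differed by more than counting noise (chi-square of at least 1.95 per feature). Alternatives were library size alone, RLE factors, a loess offset on abundance (span 0.3), DESeq2 1.42.0, the likelihood-ratio test, voom in limma 3.58.1, a mean count of at least 50, a replicate block and leaving out each library. The tests were run on simulated counts first.

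The members and gene lists were chosen with earlier results of these data known. Named were the 4 members, each locus peak, the 6 strongest peaks within 50 kb of Myod1 and of Myog, the 2 windows most correlated with each member, and per list the genes past the threshold or else the 4 with the smallest p-values.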

Additional observations from a re-analysis of the deposited data

How the results depend on the processing

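None of the 4 windows and none of the named peaks passed the adjusted threshold under any of the alternatives run, and Myog, Myf6, PK7021, PK35088, PK35090, PK3070, PK3071, PK3072 and PK3073 kept their direction in all 14. Signs turned for values near 0, and the cause was not tested. With library size alone, which moved the median of all peaks to 0.136 and of all windows to 0.0459, log2 fold changes were 0.0087 for Myod1, 0.0465 for Myf5, 0.027 for PK7022, 0.0771 for PK35089 and 0.00716 for Tcf4. With limma voom PK35092 was at -6.6e-05. Leaving out each library gave -0.164 to 0.075 for Myod1, -0.094 to 0.114 for Myf5, -0.245 to 0.00187 for PK7022, -0.0045 to 0.231 for PK7023, -0.152 to 0.0307 for PK35089, -0.0116 to 0.201 for PK35091, -0.0616 to 0.0861 for PK35092, -0.0172 to 0.172 for PK35094, -0.0351 to 0.171 for PK3069, -0.0806 to 0.212 for PK3074, -0.14 to 0.0436 for Tcf4, -0.0349 to 0.114 for Tcf12 and -0.0232 to 0.185 for Ezh2. The listed network genes past the threshold ranged from 0 to 2, with the 2 arising without LacZ-shRNA replicate 1, where calls over all windows rose from 11 to 157. Other settings gave 4 to 33 calls among windows and 94 to 447 among peaks, against 223. The replicate block gave 0.0112 for Myf5 and -0.00364 for PK35092, with 13 called windows and 207 called peaks. The labels do not say whether same-numbered pools came from the same mice. Same-numbered r in windows was 0.191, -0.133 and 0.0952, which with 3 group-centred replicates cannot settle it. The main fit had no block, and the block is given here only. In the order of levels, leaving out a library gave 0.68 to 0.74 for Myod1 over Myf6 and 1.35 to 1.43 for Myog over Myf5, with no exact p under 0.0625 possible from 5 libraries. Summed promoter peaks, not scaled to peak length, put Myod1 over Myf6 by 1.39 (exact p adjusted over 2 pairs 0.0625). They could not be used for Myf5, which has none. The Myod1 peak PK35090 spans 5334 bp and the Myf6 peak PK7021 2221 bp. Per kb these peaks were nearly equal, at 33.75 and 31.09 CPM, so the sum does not bear on the order per kb. PK7023 could not be fitted at a mean count of at least 50. The intervals given are not adjusted for the number of rows tested, so they do not mark what could be detected with 3 pools per group. PK3070 did not pass the adjusted threshold, although its interval of -0.81 to -0.20 leaves out 0.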

Other observations

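The windows most like each member across the 6 libraries, by Pearson's r of log2 CPM among 13496 protein-coding windows that overlap no other and have a mean count of at least 50, were Map3k20 (r 0.993) and Pdhb (0.988) for Myod1, Cand1 (0.997) and Kat6a (0.995) for Myf6, Nupr1l (0.994) and Cops8 (0.991) for Myog, and Gripap1 (0.993) and Trp63 (0.988) for Myf5. With 6 points from shared libraries such values are common: 182, 334, 115 and 177 windows exceeded an r of 0.9 with Myod1, Myf6, Myog and Myf5. Among the members, r was 0.87 for Myod1 and Myf6, 0.60 for Myod1 and Myf5, 0.55 for Myog and Myf5, 0.50 for Myf5 and Myf6, 0.07 for Myod1 and Myog and -0.16 for Myog and Myf6. These are descriptions over libraries that differ in depth and treatment.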
